A study of Mus musculus with 6 samples.

Results

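Heat shock chaperones were followed in microglia sorted by neutral lipid content from the hippocampus of progranulin-deficient mice. The set comprised 10 genes, namely Hspa1a, Hspa1b, Hspa8, Hsp90aa1, Hsp90ab1, Hsph1, Dnajb1, Dnaja1, Hspd1 and Hspe1, taken by symbol from the 16179 genes of the deposited table, and all 10 were present. They were chosen by their normalised reads, which had been seen to be high in the libraries numbered 1 of both sorted fractions, so every value by library number is a description and carries no test. Differences between the sorted fractions were tested.

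All mice were 10-month-old males of strain B6.129S4(FVB)-Grntm1.1Far/Mmja, which lack progranulin, and no wild-type group was analysed here. Microglia were sorted on CD11b with low CD45, about 10000 living cells per sample, from hippocampi pooled from 2 mice. The dye BODIPY, which stains neutral lipid, separated a lipid droplet-low fraction (BODIPY-low, titled lo) from a lipid droplet-high fraction (BODIPY-high, titled hi), called the low and the high fraction below. Each fraction had 3 libraries, numbered 1, 2 and 3 in the titles (GRN1, GRN2, GRN3). The labels do not say what a number stands for, whether a low and a high library of the same number came from the same pool, or whether the numbers mark a preparation day.

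Chaperones bind unfolded proteins and help them to fold. When proteins are damaged, as by heat, heat shock factor 1 binds heat shock elements in DNA and turns on the stress-inducible members, while other members are made at high level in unstressed cells. HSP70 proteins hold clients in an ATP-driven cycle that J-domain proteins (HSP40) start and nucleotide exchange factors such as HSP110 end. HSP90 takes over partly folded clients, and the HSP60 and HSP10 pair folds proteins inside mitochondria. In the brain they are known chiefly for handling proteins that misfold or aggregate.

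The libraries held 24982215 to 34899425 recovered reads, and both number 1 libraries (25014007 and 30285045) lay within that range. Grn, the gene targeted in these mice, had 416, 625 and 990.1 normalised reads in low-fraction libraries 1, 2 and 3 and 468, 657 and 1614 in those of the high fraction. All 6 libraries are labelled as knockout, and Grn was lowest in both number 1 libraries and highest in both number 3 libraries. Its part in the chaperone values was not tested. All 10 fixed microglia markers were detected in every library, and together they took 5.01% to 6.25% of reads. Markers of other cells were present too: 8 choroid plexus markers took 0.0135% to 0.0649% of reads in the low fraction and 0.532% to 0.951% in the high fraction. Markers of neutrophils (9 of the 10 listed were in the table) took 0.113% to 0.291% and 0.000734% to 0.00851%. In these bulk libraries fewer cells of a type and less RNA per cell cannot be told apart.

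The stretches of DNA that heat shock factors recognise were looked for in the promoters of the members, as a description of these genes. RefSeq promoter windows (GRCm38.p6, 250 bases before to 50 after a start site) were at hand for 7 of the 10 members, in 12 windows, and Hspa8, Hsp90aa1 and Hsp90ab1 had none. The searched motifs were the 2-unit elements GAANNTTC and TTCNNGAA, each its own reverse complement, and the 3-unit elements that contain them, TTCNNGAA followed by NNTTC and GAANNTTC followed by NNGAA, which are each other's reverse complement. A 2-unit motif stood in 7 of the 12 windows and in 15.1% of all 32851 promoter windows. A 3-unit motif stood in 4 of the 12 windows, those of Hspd1, Hspe1 and Hsph1, and in 0.603% of all windows. The pair of Hsph1 windows overlap, and Hspd1 and Hspe1 share 1 element, so these windows are not independent. Stress-inducible members are turned on through such elements, so matches could be foreseen from the choice of genes. The part of the motifs in the values by library number was not tested. Dnajb1 had no match, which says only that these letters are not in its windows. The following stretches, printed 5′ to 3′ on the gene's strand with the motif in capitals, show the elements of the members that varied most and of the shared mitochondrial promoter.
Hspa1a: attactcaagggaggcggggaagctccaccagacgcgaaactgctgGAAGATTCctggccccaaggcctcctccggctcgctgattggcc
Hspa1b: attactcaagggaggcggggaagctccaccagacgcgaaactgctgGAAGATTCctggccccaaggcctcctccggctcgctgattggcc
Hspe1: gtccgTTCTAGAACCTTCCGGAAggccccg
Hsph1: cagaTTCTGGAAAGTTC
Dnaja1: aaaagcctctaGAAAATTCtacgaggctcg
The Hspa1a stretch lies at chr17:34972217-34972306 and the Hspa1b stretch at chr17:34959299-34959388, both on the minus strand and outside annotated exons where the motif stands, 104 to 97 bases before the start site. The printed stretches are identical, and over the whole 300 bases the promoter windows of these genes differ at 4 bases (98.7% identical). The Hspe1 stretch (chr1:55088054-55088083, plus strand) holds an unbroken run of alternating units 89 to 72 bases before the Hspe1 start, and the same run lies 144 to 127 bases before a start of Hspd1 on the other strand, within an annotated exon of Hspd1. The Hsph1 element (chr5:149636288-149636304, minus strand) and the Dnaja1 element (chr4:40722333-40722362, plus strand) also lie in annotated exons of those genes. The Dnaja1 motif stands 124 to 117 bases before a start site. The 3-unit motif of Hsph1 stands 16 to 28 bases after 1 start site and 37 to 49 bases after the other. A 2-unit motif of Hsph1, not printed, stands 54 to 47 bases before the former and 33 to 26 before the latter.

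The inducible HSP70 genes Hspa1a and Hspa1b, neighbours on chromosome 17 (34969190 to 34972156 and 34956436 to 34959238, 1 exon each), had the widest range. Hspa1a had 2439, 284 and 193 normalised reads in low-fraction libraries 1, 2 and 3, and 2147, 263 and 284 in high-fraction libraries 1, 2 and 3. Hspa1b had 3616, 314 and 184 in the low fraction and 2806, 302 and 294 in the high fraction. Both number 1 libraries stood far above the other 4 for each gene, while the fractions overlapped. The mean of the number 1 libraries was 8.95 times that of the other 4 for Hspa1a and 11.7 times for Hspa1b, on the linear scale of normalised reads. Within BODIPY-low these ratios were 10.2 and 14.5, and within BODIPY-high 7.85 and 9.41. Together the pair took 0.0212% (0.0206 to 0.0217) and 0.0174% (0.0169 to 0.0178) of reads in the number 1 libraries of the low and the high fraction (95% exact Clopper-Pearson intervals, counting error only), and at most 0.00217% (0.00199 to 0.00235) in the others.

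The transcripts of this pair share long stretches, and their counts are uncertain one against the other. Of all 100-base windows of the GENCODE transcript, 47.1% of those of Hspa1a also occur in Hspa1b, and 49.9% of those of Hspa1b occur in Hspa1a. How reads that fit both were counted is not given in the sources used here. Exons of Hspa1a also overlap the predicted gene Gm20481 on the other strand, and the strand of counting is not given either.

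**Figure D1:**
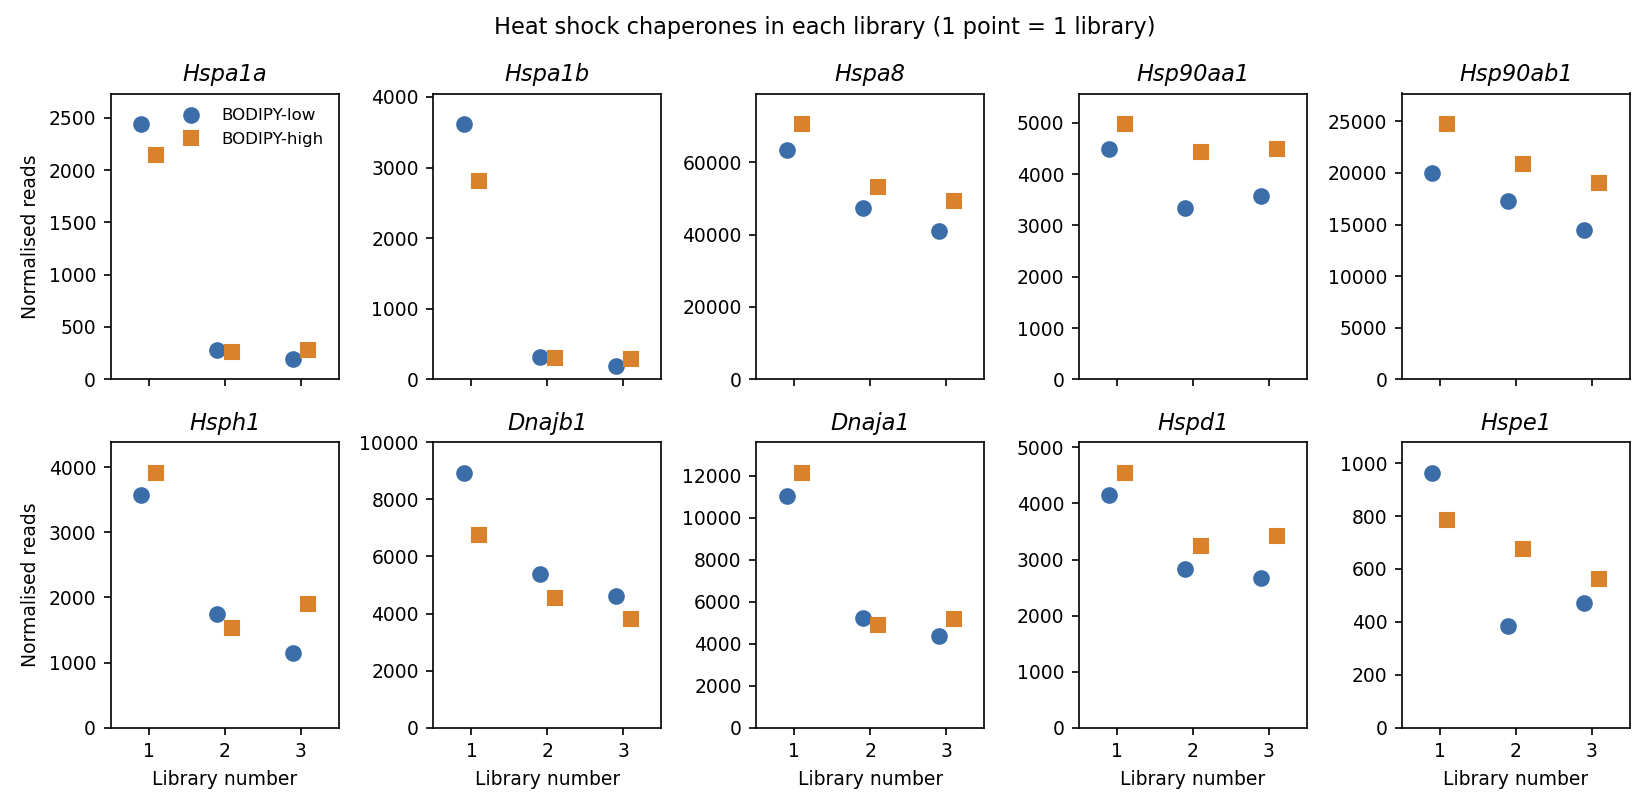
Normalised reads (vertical axis, from 0, a scale of its own for each gene) of the 10 heat shock chaperones against library number (horizontal axis), with circles for BODIPY-low and squares for BODIPY-high and 1 point per library. In each fraction the number 1 library is the highest of the 3 for every gene, most widely for Hspa1a (2439 and 2147 against 193 to 284) and Hspa1b.

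Hspa8 (chromosome 9, 40800984 to 40810087) encodes the constitutive HSP70, which also works in clathrin uncoating and chaperone-mediated autophagy. It had 63268, 47287 and 41017 normalised reads in low-fraction libraries 1, 2 and 3, and 70561, 53226 and 49416 in the high fraction. The number 1 libraries were again above the other 4, by a ratio of 1.40, far less than for the inducible pair. Per length, Hspa8 was the most abundant member in all 6 libraries, at 447 ± 83.5 reads per kb of exon per 1000000 recovered reads (SD over 6 libraries). Of its 100-base windows, 63.4% also occur in transcripts of other annotated genes, so this level is uncertain. The same holds for 47.5% of the windows of Hsp90aa1, 26.9% of Hspd1, 24.0% of Dnaja1 and 22.4% of Hspe1, and for none of Hsp90ab1, Hsph1 and Dnajb1.

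The HSP90 genes had the smallest ratios between number 1 and the other libraries. Hsp90ab1 (chromosome 17, 45567775 to 45573271), the constitutive beta form, had 20019, 17331 and 14479 normalised reads in the low fraction and 24736, 20829 and 19032 in the high fraction. Hsp90aa1 (chromosome 12, 110690605 to 110702728), the inducible alpha form, had 4491, 3337 and 3574 in the low fraction and 4977, 4437 and 4496 in the high fraction. For both genes the number 1 library was the highest of its fraction, but in the low fraction it did not exceed the highest library of numbers 2 and 3 in the high fraction. The ratios of number 1 to the others were 1.25 for Hsp90ab1 and 1.20 for Hsp90aa1.

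Hsph1 (chromosome 5, 149614287 to 149636376) encodes an HSP110 that exchanges the nucleotide of HSP70. It had 3569, 1739 and 1147 normalised reads in the low fraction and 3915, 1536 and 1897 in the high fraction, a ratio of number 1 to the others of 2.37. Dnaja1 (chromosome 4, 40722150 to 40737149), a J-domain partner of HSP70, had a like ratio of 2.36, with 11040, 5208 and 4350.2 in the low fraction and 12153, 4918 and 5166 in the high fraction. Dnajb1 (chromosome 8, 83608193 to 83612653), the stress-inducible J-domain partner, had 8936, 5370.3 and 4602 in the low fraction and 6739, 4562 and 3812 in the high fraction, a ratio of 1.71. All 3 genes had both number 1 libraries above the other 4. Dnajb1 alone among the 10 members was lower in BODIPY-high than in BODIPY-low at each of the 3 numbers.

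Hspd1 and Hspe1 encode the mitochondrial HSP60 and HSP10 and lie head to head on chromosome 1 (55077835 to 55088243 and 55088132 to 55091307). Hspd1 had 4152, 2833 and 2678 normalised reads in the low fraction and 4549, 3249.5 and 3422 in the high fraction. Hspe1 had 964, 385 and 470.5 in the low fraction and 787, 675 and 561 in the high fraction. Both had number 1 above the other 4, with ratios of 1.43 and 1.67. Their exons overlap by 112 bases on opposite strands, and without known strand reads there cannot be told apart. Hspe1 had the largest part of its variation outside fraction and number, 25.6% of its sum of squares.

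Seen over the set, 8 of the 10 members had both number 1 libraries above the other 4, the exceptions being Hsp90aa1 and Hsp90ab1, and 8.08% of all 12821 tested genes had that arrangement. No member had both number 1 libraries below the other 4, against 7.99% of tested genes. Number 1 was the highest of the 3 in both fractions for all 10 members and for 16.2% of tested genes. The median log2 difference of number 1 from numbers 2 and 3 was 0.77 over the members and 0.02 over all tested genes. Numbers 2 and 3 differed less: no member had both number 2 libraries above (4.23% of tested genes) or below (3.85%) the other 4, none had both number 3 libraries above (4.45%), and only Hspa1b had them below (4.0%). Number 2 was the highest in both fractions for no member (9.70%) and the lowest for Hsp90aa1 (12.5%). Number 3 was the highest for no member (12.2%) and the lowest for Hspa8, Hspa1b, Hsp90ab1 and Dnajb1 (10.4%). Since the library numbers chose the members, these counts describe the choice and support nothing further. Without the BODIPY-low number 1 library, the other number 1 library exceeded the rest in 10 members and the median was 0.60, and without the BODIPY-high number 1 library it was 8 members and 0.94. With only 1 library required above the other 4, this arrangement is easier to meet, and its count could not fall below 8. Its share over all tested genes was not computed.

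On the log2 scale the library number held a median of 84.9% of each member's sum of squares over the 6 libraries, the fraction 11.2% and the remainder 1.49%. Over all tested genes the medians were 29.4%, 31.9% and 21.3%. The number has 3 levels and the fraction 2, so on average the number takes a larger share where neither matters. The shares of the members are therefore to be read against these medians. The share of the number ran from 39.7% for Hsp90aa1 and 52.9% for Hsp90ab1 to 97.9% for Dnaja1, 98.3% for Hspa1b and 98.7% for Hspa1a. All 45 pairs of members correlated positively over the 6 libraries, with Pearson's r from 0.275 (Hsp90aa1 with Dnajb1) to 0.999 (Hspa1a with Hspa1b) and a median of 0.850. As the members were chosen for high values in both number 1 libraries, positive correlations followed from that choice. The 6 points also share libraries and size factors, so the shares and correlations are descriptions and support nothing further.

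Of the 8 marker lists of other cells, that of astrocytes was highest in number 1 in both fractions, at 0.0280% of reads (0.0274 to 0.0287) against 0.0256% and 0.0250% in the low and 0.0345% (0.0338 to 0.0351) against 0.0265% and 0.0288% in the high fraction. Most reads of that list came from Slc1a3 (7712 and 8954 normalised reads in the number 1 libraries), named after its values were seen. It was the only 1 of the 6 astrocyte genes with number 1 highest in both fractions. The neuron list was highest in number 2 in both fractions, and the other 6 lists were highest at a different number in each fraction. The neutrophil markers were highest in the number 1 library of BODIPY-low, at 0.291% of reads (0.289 to 0.294) against 0.113% and 0.115%, but in BODIPY-high the number 2 library was highest, at 0.00851% (0.00815 to 0.00888) against 0.00181% in number 1. The choroid plexus markers were highest in number 1 of BODIPY-low (0.0649%) and in number 3 of BODIPY-high (0.951%). The microglia markers took 6.25%, 5.94% and 5.58% in the low fraction and 5.36%, 5.16% and 5.01% in high-fraction libraries 1, 2 and 3, so number 1 was slightly higher in both. The part of any of these in the chaperone values was not tested.

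**Figure D2:**
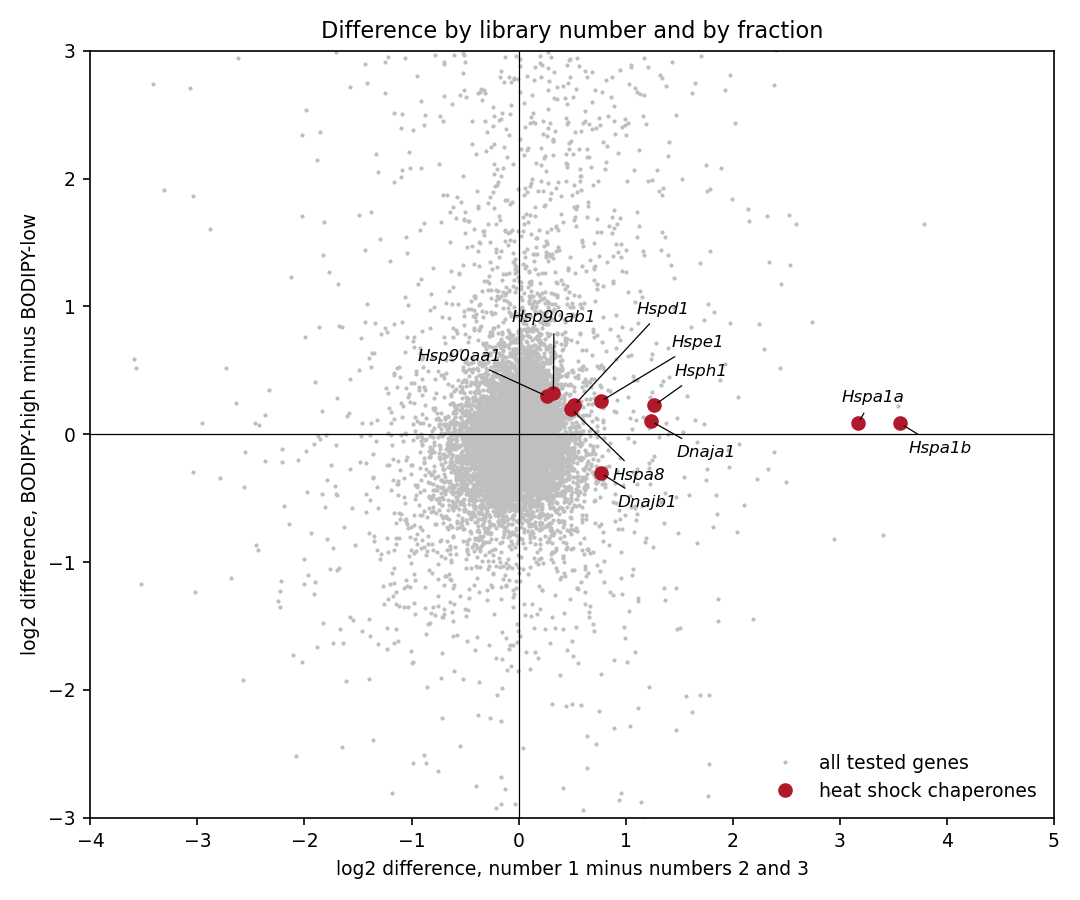
Log2 difference of BODIPY-high from BODIPY-low (vertical axis) against log2 difference of number 1 from numbers 2 and 3 (horizontal axis) for all tested genes in grey and the 10 chaperones in red, with 691 genes outside the axes. All 10 chaperones lie right of 0, Hspa1a and Hspa1b at 3.17 and 3.57, and between -0.30 (Dnajb1) and 0.32 (Hsp90ab1) on the vertical axis.

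Levels of the members were compared per length, as reads per kb of exon per 1000000 recovered reads. The length took in every annotated exon of a gene, as 8.629 kb for Dnaja1, whose longest coding transcript has 5622 bases. The order of the members and the ratios below depend on this choice. Hspa8 (447 ± 83.5, SD over 6 libraries) was followed by Hsp90ab1 (230.1 ± 38.1) and Dnajb1 (62.8 ± 19.99), each apart from the next by more than their spread. Below these came Hspd1 (46.8 ± 9.25), Hsp90aa1 (38.2 ± 5.24), Dnaja1 (29.3 ± 13.9), Hspa1b (15.7 ± 19.2), Hspe1 (15.4 ± 4.91), Hsph1 (11.2 ± 5.45) and Hspa1a (11.1 ± 12.4). From Dnajb1 down, the means of neighbours in this order lay within their spread over libraries. Compared within each library, Hspd1 stood above Hsp90aa1 in all 6, and the other neighbours swapped order in at least 1. Hspa1b held rank 9 of 10 in the 4 libraries of numbers 2 and 3, rank 5 in the number 1 library of BODIPY-low and rank 7 in that of BODIPY-high.

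Ratios between members do not depend on the size factors. Hspa1a plus Hspa1b stood to Hspa8, per kb of exon, as 0.144, 0.0189 and 0.0137 in low-fraction libraries 1, 2 and 3 and as 0.105, 0.0159 and 0.0175 in the high fraction. This ratio in number 1 was 8.80 times the mean of numbers 2 and 3 in the low fraction and 6.30 times in the high fraction. Hsp90aa1 stood to Hsp90ab1 as 0.171, 0.147 and 0.188 in the low fraction and 0.154, 0.162 and 0.180 in the high fraction. Number 1 did not stand apart in that ratio, which also sets an inducible against a constitutive form. Dnajb1 stood to Dnaja1 as 2.18, 2.78 and 2.85 in the low fraction and 1.49, 2.50 and 1.99 in the high fraction, with number 1 lowest in both fractions. Hspd1 stood to Hspe1 as 2.40, 4.11 and 3.18 in the low fraction and 3.23, 2.69 and 3.40 in the high fraction, with no common order.

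**Figure D3:**
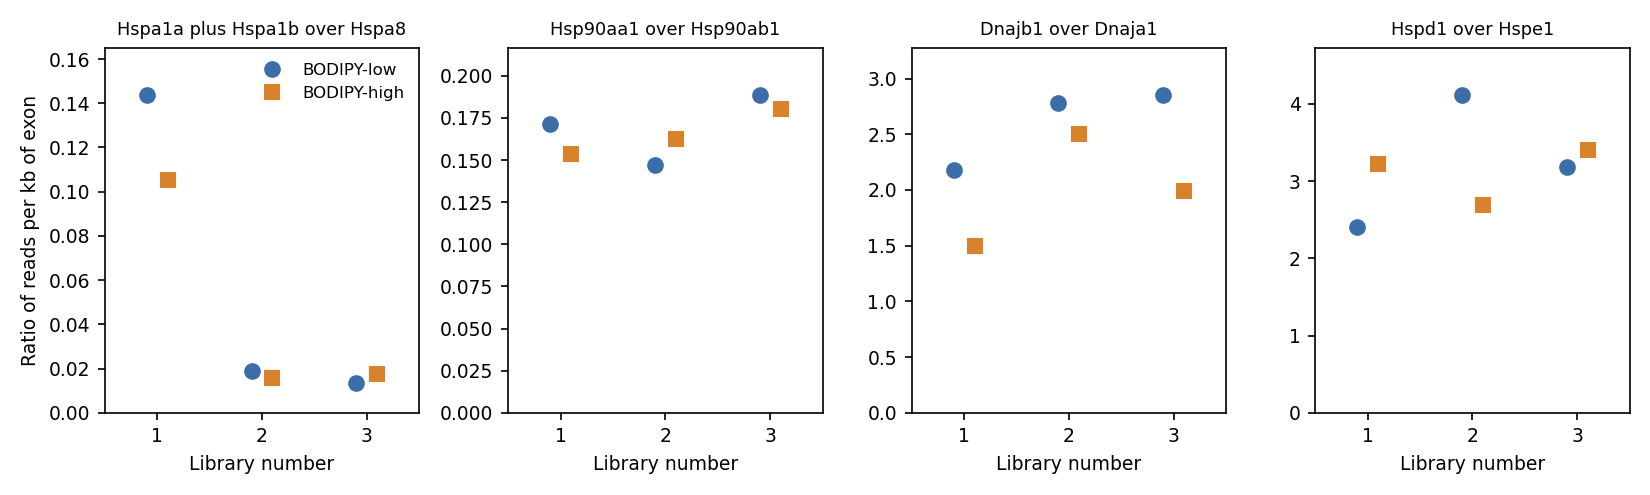
Ratio of reads per kb of exon between 2 members (vertical axis, from 0) against library number (horizontal axis), 1 panel per ratio, circles for BODIPY-low, squares for BODIPY-high, 1 point per library. Hspa1a plus Hspa1b over Hspa8 is 0.144 and 0.105 in the number 1 libraries and 0.0137 to 0.0189 in the others, while the HSP90 ratio stays between 0.147 and 0.188.

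Between the fractions, none of the 10 members passed the test, which took no account of library number. The spread between numbers thus stayed in its error. With the number as a block, a pairing that no label states, limma called Hspa8, Hsp90aa1, Hsp90ab1 and Dnajb1, as given in the closing section. The test was limma on log2(normalised reads + 1), BODIPY-high against BODIPY-low, 3 libraries each, with Benjamini-Hochberg adjustment over all 12821 tested genes and a call at an adjusted p below 0.05. It called 13.3% of all tested genes (9.79% higher and 3.52% lower). All 10 members passed the filter on low values, and no member had fractions that did not overlap, against 18.0% of tested genes with all BODIPY-high libraries above and 13.4% with all below. At an unadjusted p below 0.05 limma, edgeR and DESeq2 each found 2 members, where limma found 27.1% of tested genes. edgeR called 0 of 10 and DESeq2 0 of the 8 to which it gave an adjusted p, with 12.8% and 16.6% of tested genes called. Over the members the median log2 difference was 0.21, and over all tested genes -0.01.

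The 2 members nearest to a call were the HSP90 genes. Hsp90ab1 had 17276 ± 2771 normalised reads in the low fraction and 21532 ± 2916 in the high fraction (± SD over 3 libraries), a log2 difference of 0.32 (SE 0.13, limma adjusted p = 0.130). Hsp90aa1 had 3801 ± 609.5 and 4637 ± 297, a log2 difference of 0.30 (SE 0.12, limma adjusted p = 0.125). Without the number 1 library of BODIPY-low limma called both, with log2 differences of 0.43 (adjusted p = 0.0462) and 0.42 (adjusted p = 0.0207), and without both number 1 libraries it called Hsp90aa1 (adjusted p = 0.0243). The other single libraries left out gave no call for any member.

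Spread between libraries of the same fraction was wide for the inducible genes. Hspa1a had 972 ± 1271 and 898 ± 1082 normalised reads in the low and the high fraction, and Hspa1b had 1371 ± 1945 and 1134 ± 1448, so that the SD exceeded the mean. Their log2 differences were 0.09 (SE 0.92, limma adjusted p = 0.965) and 0.08 (SE 1.04, limma adjusted p = 0.969), while the linear means differed in the other direction and edgeR gave -0.11 and -0.27. Dnajb1 had 6303 ± 2313 and 5038 ± 1520.4, a log2 difference of -0.30 (SE 0.24, limma adjusted p = 0.467). Hspa8, Hspd1, Hspe1, Hsph1 and Dnaja1 had log2 differences between 0.10 and 0.26 with limma adjusted p between 0.442 and 0.895. With SEs of 0.16 to 1.04, these p-values do not show that the fractions are alike.

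Libraries of the same number were also set side by side. Hspa8, Hsp90aa1, Hsp90ab1 and Hspd1 were higher in BODIPY-high at all 3 numbers, 4 of 10 members against 25.0% of tested genes. The log2 differences at numbers 1, 2 and 3 were 0.16, 0.17 and 0.27 for Hspa8, and 0.31, 0.27 and 0.39 for Hsp90ab1. Dnajb1 was lower at all 3 numbers, by -0.41, -0.24 and -0.27, an arrangement found in 24.8% of tested genes. The other 5 members changed sign between numbers: for Hspa1b the differences were -0.37, -0.06 and 0.68, and for Hspe1 -0.29, 0.81 and 0.25.

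**Figure D4:**
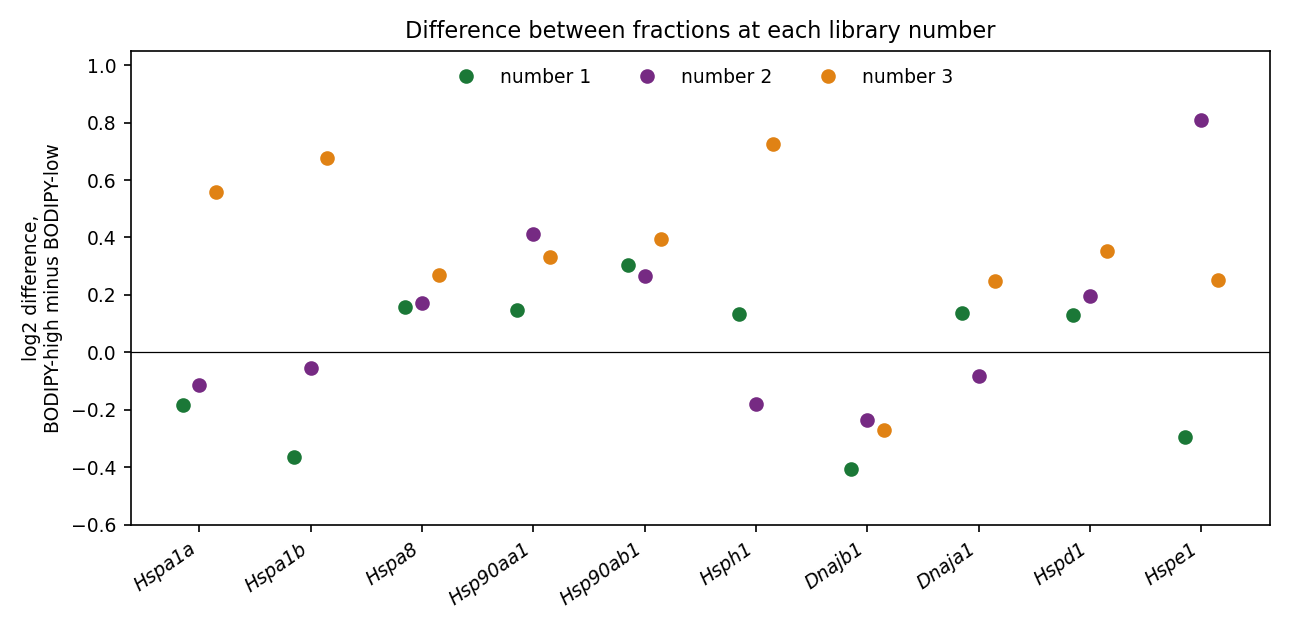
Log2 difference of BODIPY-high from BODIPY-low (vertical axis) at library numbers 1, 2 and 3 (3 coloured points) for each of the 10 chaperones (horizontal axis). Hspa8, Hsp90aa1, Hsp90ab1 and Hspd1 have all 3 points above 0 and Dnajb1 all 3 below, while Hspe1 ranges from -0.29 to 0.81.

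Other genes of the chaperone system were read from lists of 79 genes, of which 72 were tested. Between the fractions 10 of these rose in BODIPY-high and 1 fell, beside 9.79% and 3.52% of all tested genes. Of the small heat shock proteins, which hold unfolded proteins without ATP, 4 of 6 tested genes rose, and the median log2 difference was 1.55 (-0.01 over all tested genes). Cryab, the alpha-B crystallin, rose from 34.7 ± 13.1 to 585 ± 111 normalised reads (± SD over 3 libraries, limma log2 difference 4.10, SE 0.32, adjusted p = 4.24e-05), and Hspb8, a partner of Bag3 in selective autophagy, from 26.4 ± 25.8 to 430.01 ± 176 (4.30, SE 0.59, adjusted p = 8.84e-04). Hspb6 and Hspb1 rose by 1.80 and 1.29 (limma adjusted p = 0.00176 and 0.0137). In the same libraries all 8 tested choroid plexus markers rose, with a median of 4.60, and took 0.532% to 0.951% of reads in BODIPY-high against 0.0135% to 0.0649%. Their part in the rise of the small heat shock proteins was not tested. The call of Hspb1 was lost without the number 3 library of either fraction (limma adjusted p = 0.0544 and 0.0579).

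Among 20 tested cochaperones of HSP70 and HSP90, 4 rose, beside 9.79% of all tested genes: Cdc37, which loads kinases onto HSP90 (0.37), Tomm34, which passes mitochondrial precursors on (0.37), Hspbp1, an HSP70 exchange factor (0.49), and Stub1, the ubiquitin ligase CHIP (0.55), with limma adjusted p between 0.0249 and 0.0398. Each of these calls was lost when some single library was left out: Cdc37 and Hspbp1 without number 2 or 3 of either fraction (adjusted p up to 0.140), Tomm34 without any library but BODIPY-high number 2 (up to 0.126), and Stub1 without any one of the 6 (up to 0.150). Dnaja4, a J-domain protein, rose by 0.88 (limma adjusted p = 0.0139), which failed without BODIPY-low number 2 or 3 or BODIPY-high number 3 (up to 0.0708). Hspa2 rose by 0.98 (limma adjusted p = 0.0464) and Hspa13 fell by 0.39 (0.0304), and of the 6 single libraries left out only BODIPY-high number 2 for Hspa2 and BODIPY-high number 1 for Hspa13 kept the call. Hspa2 also missed the threshold with no filter on low values (limma adjusted p = 0.0554) and with a mean of at least 50 (0.0510). None of the 14 genes of the CCT chaperonin and prefoldin, the 10 other mitochondrial chaperones, the 3 tested heat shock factor genes or, from a further list, the 15 chaperones of the endoplasmic reticulum was called by limma or edgeR, with 1, 2, 2 and 2 of them at an unadjusted p below 0.05. DESeq2 called 1 of the mitochondrial genes, Hspa9, and 1 of the endoplasmic reticulum, Hyou1, both named after their values were seen.

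The other chaperone genes were also read by library number. Of the 72, 17 had both number 1 libraries above the other 4 and 4 had both below, beside 8.08% and 7.99% of all tested genes, and the median log2 difference of number 1 was 0.13. Chordc1, a cochaperone of HSP90, had 5089, 3041 and 2749 normalised reads in the low fraction and 5028, 2714 and 2721 in the high fraction. Hspa5, the HSP70 of the endoplasmic reticulum, had 73833, 51646 and 47219 in the low fraction and 71393, 45192 and 48143 in the high fraction. Both were named here after their values were seen, as genes with both number 1 libraries clearly above the rest. Of the 15 chaperones of the endoplasmic reticulum, 10 had this arrangement, with a median of 0.16. The gene of heat shock factor 1 itself, Hsf1, had 1202, 1373 and 1063 in the low fraction and 1033, 1283 and 1310.2 in the high fraction, with number 1 lowest in BODIPY-high and in the middle in BODIPY-low.

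Immediate early genes, transcription factors and regulators switched on within minutes of a stimulus, mostly had low values in the number 1 libraries. Of 20 tested, 15 were lowest in number 1 in both fractions (15.6% of all tested genes), and 9 had both number 1 libraries below the other 4 (7.99%). Fos had 7624, 17311 and 19369 normalised reads in the low fraction and 6518, 12179 and 14235 in the high fraction. Egr1 had 5969, 12335 and 14376 in the low fraction and 4103, 7558 and 9323 in the high fraction. For both genes the number 1 libraries were the lowest pair, at a ratio to the others of 0.448 and 0.462, where Hspa1a stood at 8.95. Atf3 had 901, 1145 and 1312 in the low and 851, 911 and 936 in the high fraction, with both number 1 libraries lowest again but by less. Jun had 35977, 50808 and 45035 in the low and 24846, 32675 and 33773 in the high fraction. Its number 1 library was lowest in each fraction, but that of BODIPY-low lay above every high-fraction library. Over the 20 genes the log2 difference of number 1 from numbers 2 and 3 ran from -2.43 to 0.32, with 3 genes above 0. Between fractions 4 of the 20 fell in the high fraction, namely Klf6 (-0.49), Klf2 (-1.04), Btg2 (-0.60) and Jun (-0.53), with limma adjusted p between 0.00163 and 0.0321, beside 3.52% of all tested genes called lower. edgeR called the same 4, and DESeq2 called 8, adding Egr2, Ier2, Junb and Zfp36, named after their values were seen. At all 3 library numbers 18 of the 20 were lower in BODIPY-high, against 24.8% of tested genes. The call of Jun was lost without BODIPY-low number 2 or 3 or BODIPY-high number 1 or 3 (adjusted p up to 0.118), and that of Btg2 stood at the threshold without BODIPY-low number 3. Without both number 3 libraries all 4 calls were lost (limma adjusted p = 0.0813 for Klf6, 0.101 for Klf2, 0.159 for Btg2 and 0.188 for Jun). In that setting the calls over all tested genes fell from 1706 to 457.

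**Figure D5:**
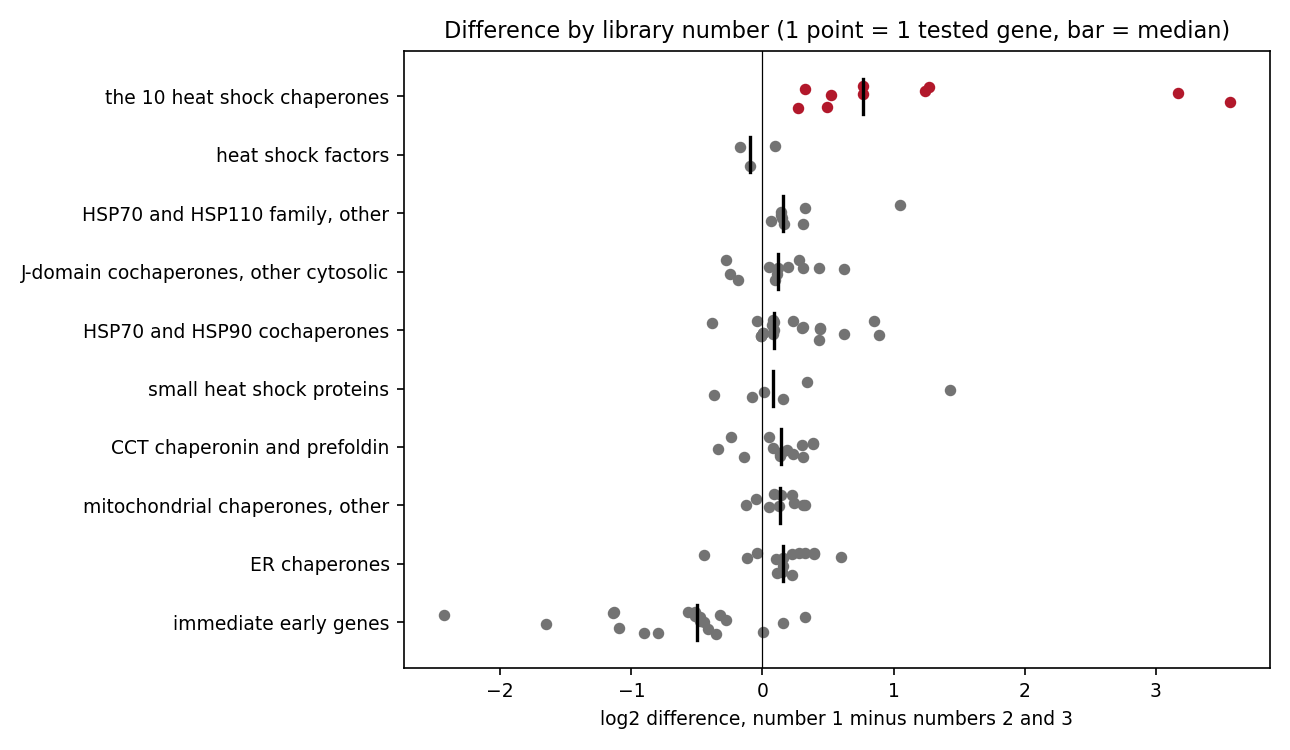
Log2 difference of number 1 from numbers 2 and 3 (horizontal axis) of each tested gene in the chaperone lists and in the immediate early list (rows), with a bar at each median. The 10 heat shock chaperones have a median of 0.77, the other chaperone lists medians between -0.10 and 0.16, and the immediate early genes a median of -0.50.

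The genes outside the set with the most similar pattern were ranked by Pearson's r, over the 6 libraries, to the mean of the members' centred log2 values, among 9883 genes with a mean of at least 100. The first 10 were Uchl5, Plin2, Bag3, Skap2, Ywhah, Snrnp27, Cadm1, Depdc7, Tmed4 and Ik, with r between 0.97 and 0.99. Plin2, the perilipin that coats lipid droplets, had 2029.6, 1524 and 1441 normalised reads in the low fraction and 2117, 1649 and 1596 in the high fraction, so its number 1 libraries were the highest pair by a log2 difference of 0.42. Bag3, a cochaperone of HSP70, had 1836, 1089 and 815 in the low fraction and 1948, 1109 and 1106 in the high fraction, a log2 difference of 0.89. Tmed4 and Ik differed by 0.06 and 0.13, so a high r here does not mean a wide difference. These correlations rest on 6 libraries of which 2 stand apart, and are given as a description.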

How the data were processed

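RNA from 6 samples of sorted microglia was made into SmartSeq v4 and Nextera XT libraries and read over 100 bases at both ends, per the labels' protocols. Per the submitters' processing notes, FastQC 0.11.4, STAR 2.5.3a and DESeq2 were used. The design text names mm10, and the notes list mm9 too. The sources used here do not give the annotation or the strand setting. The deposited values are a signal: read counts divided by the authors by 1 size factor per library. Whole reads were recovered for 100.0% of values, at a tolerance of 0.01 read. Of 16179 genes, 24 carry a date as symbol.

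Genes whose mean reached 10 (12821) were tested by limma 3.58.1 in R 4.3.3 on log2(value + 1), with trended variance, two-sided and without a block, after a check on simulated data. edgeR 4.0.16 and DESeq2 1.42.0 were run on recovered reads. Nothing in the labels says that libraries of a fraction came from separate preparations, so the p-values reflect the spread among these libraries alone. Exon lengths and coordinates came from GENCODE M21 (GRCm38), promoters from RefSeq (GRCm38.p6). The members and the lists (chaperones, immediate early genes, cell markers) were chosen with earlier results of these data known. Named genes are the members, up to 4 called genes per list, Fos, Jun, Egr1 and Atf3, and the 10 most similar genes. Others are named as chosen after their values were seen. Marker lists other than those of microglia, choroid plexus and neutrophils took, at most, 0.0458% (monocyte), 0.00853% (border macrophage), 0.00508% (endothelium), 0.0345% (astrocyte), 0.0130% (oligodendrocyte) and 0.000977% (neuron) of reads.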

Additional observations from a re-analysis of the deposited data

How the results depend on the processing

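Pseudocounts of 0.5 and 5, no filter, a mean of at least 50, TMM scaling, robust variance, edgeR and DESeq2 left the count of called members at 0. In edgeR the sign turned for Hspa1a (-0.11) and Hspa1b (-0.27), and DESeq2 gave no adjusted p for either. With the library number as a replicate block limma called 4 members, 3 higher and 1 lower: Hspa8 (adjusted p = 0.0388), Hsp90aa1 (0.0357), Hsp90ab1 (0.00560) and Dnajb1 (0.0211). The same block raised the calls over all 12821 tested genes from 1706 to 2211, and the lower ones among them from 451 to 760. Over all tested genes, deviations from the fraction means correlated by 0.11, 0.14 and 0.07 between libraries of the same number, and all 6 libraries correlated best with their own number. Between libraries of different numbers these correlations ran from -0.12 to 0.0016. As 1 same-number value is below 0.1 and no label ties the numbers to a pool, the libraries are treated as sharing only a number. The main test thus leaves the spread between numbers in its error, and members without a call may still differ between the fractions. With 1 library or both libraries of a number left out, called members ranged from 0 to 2 (0 to 2 higher, 0 to 0 lower), called genes from 457 to 1875 against 1706 with all libraries, the higher ones from 398 to 1316 and the lower ones from 59 to 559. The called genes fell below 1706 by over 1.5 times without BODIPY-low number 2 (1057) or 3 (1047), BODIPY-high number 3 (908), both libraries of number 2 (998) or both of number 3 (457). The log2 differences ranged from -0.90 to 1.21 for Hspa1a, -0.99 to 1.39 for Hspa1b, -0.17 to 0.67 for Hsph1, -0.32 to 0.51 for Dnaja1 and -0.0198 to 0.65 for Hspe1. By library number, 8 to 10 members had number 1 above the rest (9 with TMM scaling), and their median log2 difference lay between 0.60 and 0.94, where the leave-one-out values were added after seeing the data. Leaving out a library or changing the pseudocount could not lower that count below the 8 found with all libraries. Only TMM scaling could have done so. The causes of these shifts were not tested. With 3 libraries each, the spread between libraries limits which differences can be seen, and the effect of depth was not tested.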
